A study of Mus musculus with 36 samples.

Results

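The potassium channel genes described here are all genes of the array whose symbol starts with Kcn. They were chosen by name alone. Of 45037 probe sets tested, 167 carried 1 such symbol, and they named 84 of the 18193 genes with a symbol of their own. A probe set is a group of short probes on the array that reads 1 transcript or part of it. Each gene was read from whichever probe set was brightest on average across the 18 brain arrays; 38 genes had 1 probe set and 46 had more, which are given wherever they bear on a result. Of the 84 genes, 81 code for proteins and 3 are long non-coding RNAs (Kcnq1ot1, Kcnmb4os1 and Kcnmb4os2). A further 14 Kcn genes of the RefSeq table were not analysed here.

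RNA from the brain and the liver of male mice aged 12 to 13 weeks was measured in 3 inbred strains: AKR/J, DBA/2J and C57BL/6J. Mice were kept awake for 6 h from light onset (Zeitgeber time, ZT, 0) or stayed in home cages, and all were killed at ZT 6. Each of the 12 groups (2 tissues, 3 strains, control or sleep-deprived) held 3 arrays, and each array carried RNA pooled from 3 mice, so the spread between arrays is that between pools. For AKR/J control arrays 2 and 3 of each tissue the source name gives ZT 0 where the title gives ZT 6, and the calls of members made on their brightest probe set were recomputed without these doubtful controls. No allele, transgene or drug differed between groups within a strain, and food and water were freely available to all.

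Values are RMA log2 expression values, on which 1 unit is a doubling of signal. Arrays of a tissue correlated at 0.9778 to 0.9974 in brain and 0.9795 to 0.9958 in liver. Of the array's actin control, the 3' probe set exceeded the 5' one by 0.581 to 1.132 in brain and by 0.956 to 2.156 in liver, with the highest values on C57BL/6J control array 2 in brain and DBA/2J control array 1 in liver. The labelled tissues were compared with markers. In brain the neuronal genes Snap25 and Syt1 averaged 12.77 and 11.98 and the hepatocyte gene Alb 3.89. In liver Alb averaged 14.66 and Snap25 2.62. Not every listed marker was low in the other tissue: Syt1 averaged 6.62 in liver, and Ttr, listed for hepatocytes and choroid plexus, 12.87 in brain. The growth hormone gene Gh, which is made in the pituitary, lay between 4.68 and 5.18 on the AKR/J brain controls and at 4.24 on C57BL/6J sleep-deprived array 3, against 9.83 or more on the other 14 brain arrays. In whole tissue, fewer cells of a type and less RNA per cell cannot be told apart.

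Potassium channels let potassium leave the cell, which sets the resting potential, ends the action potential and shapes burst firing. Voltage-gated subunits (Kcna to Kcnd, Kcnq, Kcnh) open on depolarisation, calcium- and sodium-activated ones (Kcnma1, Kcnn, Kcnt) follow activity, inward rectifiers (Kcnj) and tandem-pore leak channels (Kcnk) act near rest, and the silent subunits (Kcnf, Kcng, Kcns, Kcnv) form no channel alone but alter those of the Kcnb family. Loss of the fly Shaker channel, or of its mouse relative Kcna2, shortens sleep, and astrocytes clear potassium from around firing neurons through Kcnj10.

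The upstream sequences of 5 members are shown because the results turn on them: Kcnk1 and Kcnj4 changed in brain with sleep deprivation, Kcnk5 changed in liver, and Kcnj9 and Kcnj10 are neighbours that differed by strain. Each is the 250 bases before the RefSeq start on GRCm38.p6, the C57BL/6J reference, written 5′ to 3′ on the gene's strand. Capitals mark matches, on either strand, to any of 4 short motifs: TGACG, the core of the cyclic-AMP response element; TGANTCA, the AP-1 site; GGGCGG, the GC box; and CACGTG, the E-box. In Kcnj4 a pair of GC-box matches abut.
Kcnk1, chr8:125994852-125995101, plus strand: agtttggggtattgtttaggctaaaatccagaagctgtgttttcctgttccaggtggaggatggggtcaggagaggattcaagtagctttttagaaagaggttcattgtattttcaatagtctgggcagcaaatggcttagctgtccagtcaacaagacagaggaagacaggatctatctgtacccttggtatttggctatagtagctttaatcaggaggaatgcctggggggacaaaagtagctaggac
Kcnj4, chr15:79505242-79505491, minus strand: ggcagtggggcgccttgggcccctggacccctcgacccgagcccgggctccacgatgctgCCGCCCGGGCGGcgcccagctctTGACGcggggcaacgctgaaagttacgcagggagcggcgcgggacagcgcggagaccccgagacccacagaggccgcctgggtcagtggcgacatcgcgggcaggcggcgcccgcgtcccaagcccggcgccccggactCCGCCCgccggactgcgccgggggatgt
Kcnk5, chr14:20181783-20182032, minus strand: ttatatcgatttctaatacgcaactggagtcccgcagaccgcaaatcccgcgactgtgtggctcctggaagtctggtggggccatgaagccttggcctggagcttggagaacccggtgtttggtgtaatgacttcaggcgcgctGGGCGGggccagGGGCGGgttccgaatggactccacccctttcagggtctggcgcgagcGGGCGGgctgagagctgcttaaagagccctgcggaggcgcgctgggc
Kcnj9, chr1:172329323-172329572, minus strand: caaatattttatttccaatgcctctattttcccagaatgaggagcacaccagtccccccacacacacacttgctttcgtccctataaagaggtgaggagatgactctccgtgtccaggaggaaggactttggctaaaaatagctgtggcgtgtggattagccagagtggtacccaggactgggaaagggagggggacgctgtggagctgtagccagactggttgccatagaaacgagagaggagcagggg
Kcnj10, chr1:172340960-172341209, plus strand: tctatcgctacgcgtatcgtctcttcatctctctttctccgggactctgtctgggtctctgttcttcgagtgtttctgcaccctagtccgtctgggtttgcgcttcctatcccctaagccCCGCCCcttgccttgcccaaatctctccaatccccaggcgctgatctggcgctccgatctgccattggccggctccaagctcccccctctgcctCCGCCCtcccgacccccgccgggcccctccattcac
The Kcnj4 window held 3 GC boxes and 1 TGACG, the Kcnk5 window 3 GC boxes and the Kcnj10 window 2, while the windows of Kcnk1 and Kcnj9 held no match. Over all 32851 RefSeq windows of this length, 32.7% held a GC box, 17.8% TGACG, 6.7% an AP-1 site and 6.0% an E-box. For the 64 of 84 members with a window (89 windows) the shares were 44.9%, 15.7%, 4.5% and 5.6%. G and C made up 77.2% of the Kcnj4 window and 44.4% of that of Kcnk1. The starts of Kcnj9 and Kcnj10 lie 11.9 kb apart and point away from each other.

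After 6 h of sleep deprivation 3 potassium channel genes were higher in brain and 1 was lower. The leak channel subunit Kcnk1 and the silent subunits Kcng1 and Kcnv1 rose by 1.21-fold, 1.20-fold and 1.18-fold, and the strong inward rectifier Kcnj4 fell by 1.17-fold, as means over the 3 strains. These 4 were 4.76% of the 84 members, against 2.55% of all genes called for the mean effect in either direction by limma at an adjusted p under 0.05. Of all genes 0.951% were called higher and 1.6% lower. All 84 members moved by less than 0.3 on the log2 scale.

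Kcnk1, whose product carries a background potassium current in neurons and astrocytes, was higher in every strain. In C57BL/6J the control arrays read 9.89, 9.68 and 9.85 and the sleep-deprived arrays 10.07, 10.05 and 10.02. In AKR/J they read 9.55, 9.39 and 9.47 against 9.83, 9.82 and 9.65, and in DBA/2J 9.80, 9.66 and 9.57 against 10.05, 9.84 and 9.95. In each strain every sleep-deprived array lay above every control array, though the gap in DBA/2J was narrow. The mean difference was 0.27 ± 0.05 (standard error, 3 arrays per group; limma adjusted p = 0.012), from 0.24 in C57BL/6J to 0.30 in AKR/J. Its other probe set gave a mean difference of 0.28 ± 0.09, which did not pass the test (limma adjusted p = 0.13). Without the 2 doubtful AKR/J controls the first probe set gave 0.24 (limma adjusted p = 0.12), and without AKR/J altogether 0.26 (limma adjusted p = 0.24).

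Kcng1 encodes a silent subunit that joins Kcnb channels. In AKR/J its brain signal went from 5.31, 5.26 and 5.38 in controls to 5.91, 5.87 and 5.71 after sleep deprivation, with no overlap. In C57BL/6J the control arrays read 5.82, 5.73 and 5.66 and the sleep-deprived ones 5.85, 5.93 and 5.73; in DBA/2J the values were 5.53, 5.45 and 5.68 against 5.86, 5.63 and 5.65. The ranges overlapped in these other strains. The mean difference was 0.26 ± 0.05 (limma adjusted p = 0.02). The difference in AKR/J alone, 0.51 ± 0.09 or 1.43-fold (limma adjusted p = 0.026), made Kcng1 the 1 member called within a strain, where 0.423% of all genes were called. No member was called in C57BL/6J (0.055% of all genes) or DBA/2J (0.148% of all genes). The strain by sleep deprivation interaction was called for 0 of 84 members and 0% of all genes by limma, with 5 of 84 members and 1.76% of all genes at an unadjusted p under 0.05; no difference between strains passed the adjusted test. Without AKR/J the mean difference of Kcng1 was 0.13 (limma adjusted p = 0.71), and without the doubtful AKR/J controls it was 0.26 (limma adjusted p = 0.11). With those controls left out, the AKR/J difference was 0.52 on 1 remaining control array, assumed to vary like the other groups (limma adjusted p = 0.68). The AKR/J call was also lost without AKR/J control array 1 (0.51), 2 (0.48) or 3 (0.55), or sleep-deprived array 1 (0.47) or 2 (0.49). The second, dim probe set of Kcng1 showed a mean difference of 0.09 ± 0.11 (limma adjusted p = 0.82).

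Kcnv1, the other silent subunit called, rose in AKR/J from 6.30, 6.14 and 6.19 to 6.54, 6.64 and 6.55 on the arrays measured. In DBA/2J the control arrays were at 6.90, 6.91 and 6.95 and the sleep-deprived ones at 7.37, 7.07 and 7.08, while in C57BL/6J 6.95, 6.93 and 6.85 overlapped 6.82, 7.17 and 7.02. The groups were separate in AKR/J and DBA/2J. The mean difference of 0.23 ± 0.06 sat at the threshold (limma adjusted p = 0.046) and lost it under 21 of 28 alternatives, 15 of them the removal of 1 array. Without the doubtful AKR/J controls it was 0.20 (limma adjusted p = 0.26). The other probe sets of Kcnv1 gave 0.15 and -0.10, and the mean of all 3 gave 0.09 (limma adjusted p = 0.55).

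Kcnj4, an inward rectifier of forebrain neurons that holds the membrane near rest, was the member that fell. Control arrays read 7.20, 7.34 and 7.24 in C57BL/6J, 7.43, 7.28 and 7.18 for AKR/J and 7.34, 7.15 and 7.15 for DBA/2J. The sleep-deprived arrays read 6.99, 6.97 and 6.96 in C57BL/6J, 7.03, 7.07 and 7.12 in AKR/J mice and 7.04, 7.07 and 7.07 in DBA/2J mice. Every sleep-deprived array lay below every control of its strain. The mean difference was -0.22 ± 0.05 (limma adjusted p = 0.021), from -0.29 in C57BL/6J to -0.15 in DBA/2J. It has 1 probe set. Without the doubtful AKR/J controls the value was -0.27 (limma adjusted p = 0.035), so that Kcnj4 was the 1 member still called; without AKR/J it was -0.22 (limma adjusted p = 0.25). The call was also lost without control array 1 of AKR/J (-0.20) or of DBA/2J (-0.20), and with a second quantile normalization (-0.20).

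**Figure D1:**
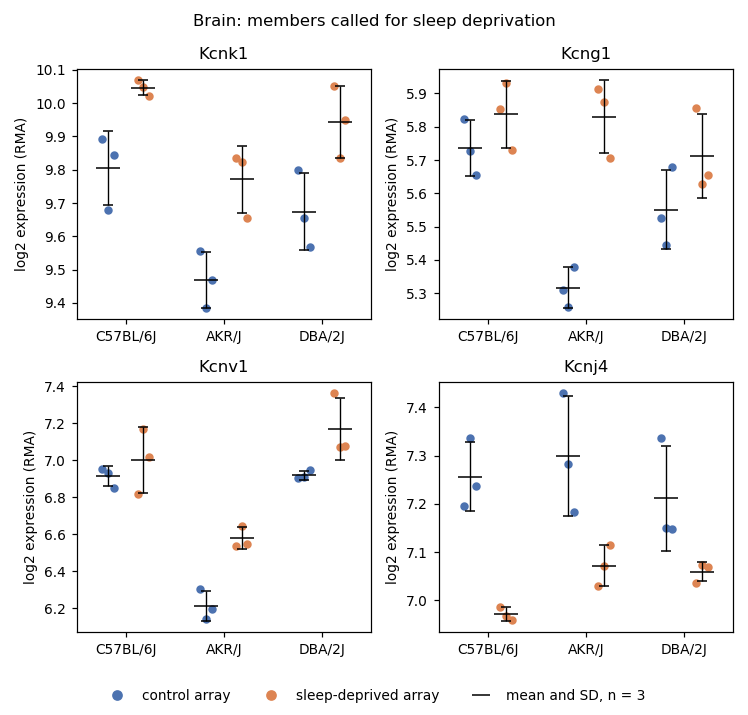
RMA log2 expression in brain of the 4 members called for sleep deprivation, by strain, with each array as a point and black bars for the mean and SD of 3 arrays. Kcnk1 is higher and Kcnj4 lower on every sleep-deprived array than on every control of the same strain, whereas Kcng1 is separate in AKR/J alone.

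Markers of other cells were read beside these changes. None of the 6 pituitary markers was called for the mean effect in brain (Gh and Cga were called for strain among controls), but their median difference in AKR/J was 1.944, and the mean log2 value of the list lay between 4.83 and 5.07 on AKR/J controls and between 6.41 and 7.49 on AKR/J sleep-deprived arrays. On the other brain groups it lay between 4.55 and 9.19, with Lhb and Tshb averaging 5.49 and 4.26 over the brain arrays. Of 5 oligodendrocyte markers 1 was lower (Opalin, -0.95, limma adjusted p = 4.1e-08) and the list's median was -0.257. Of 6 astrocyte markers 1 was higher (Gjb6, 0.31, limma adjusted p = 0.042), with a median of 0.007, and the 7 neuronal markers had none called and a median of -0.061. Their part in the changes of the channel genes was not tested.

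By family, the 9 silent subunits held 2 called higher (Kcng1 and Kcnv1), 0 lower and 7 that did not pass, with a median difference of 0.075 in brain. Of all genes 0.951% were called higher and 1.6% lower. The calls of Kcng1 and Kcnv1 were both lost on the mean of a gene's probe sets and without AKR/J. Of the 15 inward rectifiers 1 was lower and 14 did not pass (median -0.007), and of the 12 tandem-pore subunits 1 was higher and 11 did not pass (median 0.012). The remaining families had no called member in brain. Some of these small families had differences of 1 sign only, none of them called. The 4 calcium-activated Kcnn genes lay between 0.004 and 0.208 (median 0.12, with Kcnn2 at 0.21 and Kcnn3 at 0.16). The 3 Kv3 genes (Kcnc1, Kcnc2 and Kcnc4) lay below 0 (median -0.115), as did the 2 sodium-activated Kcnt genes (median -0.214). Over the 84 members 38 differences were above 0 and 46 below; the median was -0.0096, against -0.0087 over all genes. An unadjusted limma p under 0.05 was reached by 15 of the 84 members, against 15.48% of all genes.

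**Figure D2:**
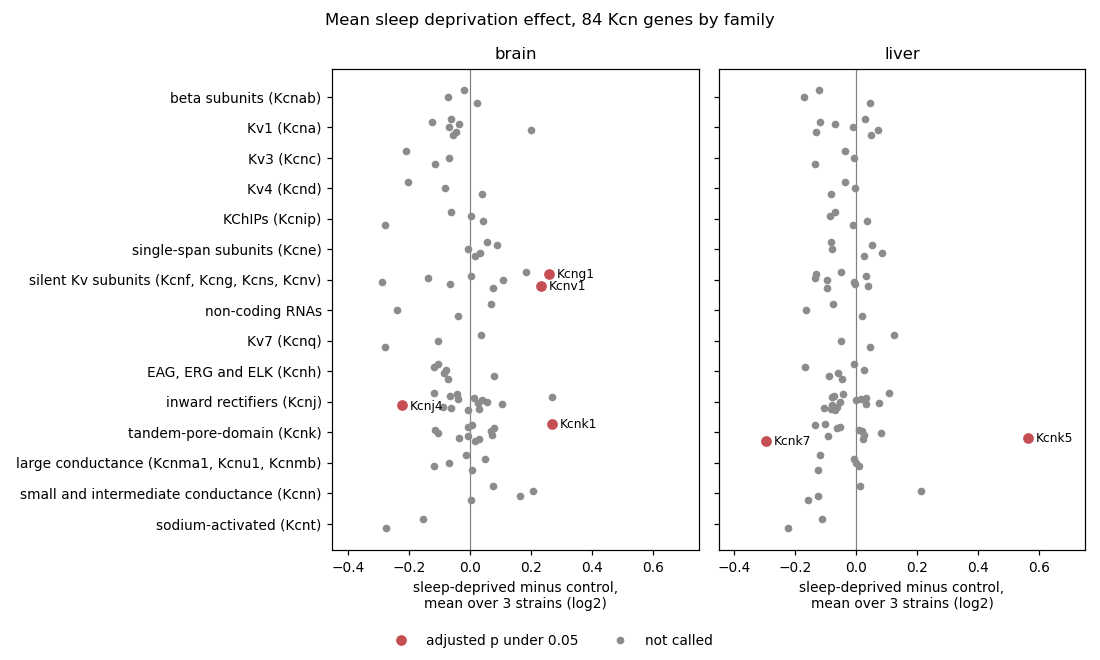
Mean sleep deprivation effect (log2, sleep-deprived minus control over 3 strains) of each of the 84 Kcn genes, grouped by family, in brain and liver; red points have a limma adjusted p under 0.05. In brain all 84 points lie within 0.3 of 0, and in liver Kcnk5 stands alone at 0.56.

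The 5 largest brain differences that did not pass are given next. Kcns2, a silent subunit, gave -0.29 ± 0.09 (limma adjusted p = 0.15), though its second probe set gave 0.07. Kcnip4, which binds Kv4 channels, gave -0.28 ± 0.07 (limma adjusted p = 0.074), with -0.16 and -0.11 on its other probe sets. Kcnq5, of the M-type current that damps repetitive firing, gave -0.28 ± 0.10, and the sodium-activated Kcnt2 -0.27 ± 0.12 (limma adjusted p = 0.21 and 0.33). Kcnj12, a strong inward rectifier, gave 0.27 ± 0.08 (limma adjusted p = 0.092), of which 0.57 in DBA/2J, where controls at 4.98, 4.72 and 5.02 lay below sleep-deprived arrays at 5.41, 5.57 and 5.46. Those DBA/2J ranges were apart, yet the strain's own test did not pass (limma adjusted p = 0.15). Without the doubtful AKR/J controls the mean difference of Kcnj12 was 0.17. Without the 5 brain arrays that stood apart in spread or actin difference, the values shrank to -0.13 for Kcns2, -0.10 for Kcnq5 and -0.05 for Kcnt2, while Kcnip4 gave -0.19 and Kcnj12 passed at 0.32 (limma adjusted p = 0.042). On the mean of a gene's probe sets Kcns2 gave -0.11 and Kcnq5 -0.16, and a second quantile normalization called Kcns2 and Kcnip4 lower (limma adjusted p = 0.031 and 0.016). Kcnip4 was called under 4 of 28 alternatives, also with array weights, bright probe sets only and C57BL/6J sleep-deprived array 3 left out. Kcnj12 was called under 3 of 28, also with array weights and with AKR/J control array 1 left out.

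Several probe sets of a gene were compared for genes chosen after their values were seen. Kcnt1, a sodium-activated channel of neurons, gave -0.15, -0.25 and -0.28 on its 3 probe sets (limma adjusted p = 0.27, 0.093 and 0.075). Kcnc1, the Kv3 subunit of fast-spiking interneurons, gave -0.21, -0.19, -0.21 and 0.03 on its 4 probe sets. For Kcnj3, the G protein-gated subunit, the brightest probe set gave 0.11 and the next -0.21 (limma adjusted p = 0.075), so its probe sets disagreed in sign. None of the 83 probe sets that were not the brightest of their gene was called for the mean effect in brain, against 778 of all 45037 probe sets. The non-coding Kcnmb4os2 gave -0.24 (limma adjusted p = 0.056).

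Well-known channels from a list, whose values no other paragraph gives, are given here for brain. Kcna1 and Kcna2, the Shaker relatives of axons, gave -0.06 ± 0.05 and -0.12 ± 0.07 (limma adjusted p = 0.7 and 0.55), and their partner Kcnab2 gave -0.07 ± 0.05. Kcnd2 and Kcnip3, of the somatodendritic A-type current, gave -0.08 ± 0.08 and 0.04 ± 0.05. Kcnh2 gave -0.12 ± 0.05, Kcnq3 -0.10 ± 0.05 and Kcnmb4, the neuronal partner of Kcnma1, -0.12 ± 0.06. Among channels active near rest, Kcnj6 gave -0.06 ± 0.06, Kcnj11 -0.07 ± 0.06, Kcnk2 -0.10 ± 0.08 and Kcnk3 0.07 ± 0.06. Of these 12 genes none was called in brain, where 2.55% of all genes were called. The same list also holds Kcnk1 and Kcnv1, which were called and are described above.

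Genes that work with potassium channels were read from a list of partners, of which 26 of 33 were measured. In brain 0 were higher and 1 lower, where 2.55% of all genes were called. Cntn2, which anchors Kcna channels beside the node of Ranvier, gave -0.23 (limma adjusted p = 0.031), and the list's median was -0.033. In liver 0 were higher and 1 lower, where 4.84% of all genes were called. Ank3, a membrane scaffold, gave -0.57 there (limma adjusted p = 0.0003), and the median was -0.021. For strain, 0 partners were called in brain. In liver 4 were called among controls (11.7% of all genes) and 4 among sleep-deprived mice (13.7% of all genes).

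Between strains, brain signals of several members differed by more than 1 unit. An F test over the 3 strains called 6 members among controls (Kcng1, Kcnj9, Kcnj10, Kcnj16, Kcnma1 and Kcnv1; 3.11% of all genes) and 5 among sleep-deprived mice (the same without Kcng1; 3.12% of all genes). In both conditions 5 members were called, with 2.13% of all genes. The 3 inward rectifiers Kcnj9, Kcnj10 and Kcnj16 were among them, 2 of which were higher in AKR/J and DBA/2J than in C57BL/6J, while Kcnj16, Kcnma1 and Kcnv1 were lower in AKR/J than in both other strains.

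Kcnj9 encodes a G protein-gated inward rectifier subunit through which transmitters silence neurons. Its brightest probe set read 7.27, 7.14 and 7.59 in C57BL/6J controls, 9.30, 9.07 and 9.12 in AKR/J controls and 9.32, 9.11 and 9.13 in DBA/2J controls. Sleep-deprived arrays read 7.32, 7.59 and 7.46 in C57BL/6J, 9.10, 9.16 and 8.87 in AKR/J mice and 9.22, 8.99 and 9.28 in DBA/2J mice. All C57BL/6J arrays lay more than 1 unit below all arrays of the other strains, and AKR/J and DBA/2J overlapped. The difference from C57BL/6J among controls was 1.83 ± 0.12 in AKR/J and 1.85 ± 0.12 in DBA/2J (3.55-fold and 3.61-fold; F test, limma adjusted p = 2.3e-08). Without the doubtful controls the AKR/J difference was 1.97, on the 1 AKR/J control array left. After sleep deprivation the AKR/J and DBA/2J differences were 1.58 ± 0.12 and 1.70 ± 0.12.

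The probe sets of Kcnj9 did not agree. Its second probe set differed the other way among controls, by -0.43 in AKR/J and by -0.43 in DBA/2J (limma adjusted p = 0.027 and 0.026). The third went with the first (1.12 and 0.93), and the fourth, the dimmest, gave -0.14 and -0.09. Averaged over all 4, AKR/J exceeded C57BL/6J by 0.60. Whether sequence differences between the strains lie under the probes was not tested, here or for the genes that follow.

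Kcnj10, the potassium uptake channel of astrocytes, is the neighbour of Kcnj9. It read 8.45, 8.44 and 8.44 in C57BL/6J controls, against 9.07, 9.04 and 9.06 in AKR/J and 9.14, 8.79 and 8.82 among those of DBA/2J. After sleep deprivation the values were 8.41, 8.48 and 8.47 in C57BL/6J, 9.07, 8.97 and 8.75 in AKR/J mice and 8.98, 8.72 and 9.01 in DBA/2J mice. Every C57BL/6J array lay below every array of the other strains. The difference among controls was 0.61 ± 0.11 for AKR/J and 0.47 ± 0.11 for DBA/2J (F test, limma adjusted p = 0.0036), on its 1 probe set. Without the doubtful AKR/J controls the first of these was 0.63 (limma adjusted p = 0.14). The DBA/2J difference lost its call under 6 of 28 alternatives, 4 of them the removal of C57BL/6J control array 1 (0.48), 2 (0.47) or 3 (0.47) or DBA/2J control array 1 (0.36). After sleep deprivation the AKR/J and DBA/2J differences were 0.47 and 0.45, and their calls were lost under 7 and 9 of 28 alternatives. Single arrays that ended the AKR/J call were AKR/J sleep-deprived arrays 1 and 2 and each C57BL/6J sleep-deprived array, with values from 0.40 to 0.49. Those that ended the DBA/2J call were AKR/J control array 3, each C57BL/6J sleep-deprived array and DBA/2J sleep-deprived arrays 1 and 3, with values from 0.39 to 0.46. The mean log2 value of the 6 astrocyte markers ran from 8.93 to 9.15 in C57BL/6J controls, 9.04 to 9.16 for AKR/J and 9.00 to 9.15 for DBA/2J, and none of the 6 was called for strain.

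Kcnj16, which joins Kcnj10 in a channel of its own, was low in AKR/J. Controls read 5.17, 4.91 and 5.21 there, 6.46, 6.04 and 6.46 in C57BL/6J and 6.65, 6.32 and 6.42 in DBA/2J; sleep-deprived arrays read 5.39, 4.99 and 5.26 in AKR/J, 6.21, 6.52 and 6.54 in C57BL/6J mice and 6.68, 6.03 and 6.55 in DBA/2J mice. No AKR/J array reached the range of the other strains. AKR/J minus C57BL/6J was -1.22 ± 0.17 among controls and -1.21 ± 0.17 after sleep deprivation (limma adjusted p = 0.00038 and 0.00046). The second probe set gave -0.86 and -0.72, in the same direction. Without the doubtful AKR/J controls the control difference was -1.15 (limma adjusted p = 0.058). Its chromosomal neighbour Kcnj2 gave -0.18 among controls and was not called.

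Kcnma1 encodes the large-conductance calcium-activated channel that shortens action potentials. In AKR/J its brightest probe set read 7.14, 7.41 and 7.09 in controls and 6.72, 6.93 and 6.48 after sleep deprivation. C57BL/6J controls read 8.79, 7.72 and 8.85 and sleep-deprived arrays 8.54, 8.67 and 8.74. DBA/2J controls read 8.72, 8.62 and 8.04 and sleep-deprived arrays 8.72, 8.62 and 8.83. Every AKR/J array lay below every array of the other strains. C57BL/6J control array 2, at 7.72, is 1 of the arrays with a high actin difference and lies nearest to AKR/J. AKR/J minus C57BL/6J was -1.24 ± 0.24 among controls and -1.94 ± 0.24 among sleep-deprived mice (limma adjusted p = 0.0068 and 9.5e-05). Without the 5 brain arrays that stood apart the control difference was -1.61; without C57BL/6J control array 1 it was -1.07 and without array 3 -1.04, neither of which passed. The sleep deprivation effect within AKR/J, -0.50 ± 0.24, did not pass (limma adjusted p = 0.74).

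The other 4 probe sets of Kcnma1 gave AKR/J minus C57BL/6J values of 0.08, 0.11, -0.24 and -0.11 among controls, none of which was called. The mean over all 5 was -0.28 (limma adjusted p = 0.48), and without the doubtful AKR/J controls the brightest gave -1.31 (limma adjusted p = 0.18). Kcnv1 showed the same split. On its brightest probe set AKR/J minus C57BL/6J was -0.70 ± 0.10 among controls and -0.43 ± 0.10 after sleep deprivation (limma adjusted p = 0.00044 and 0.032). The control value was -0.61 without the doubtful controls (limma adjusted p = 0.11), and the call after sleep deprivation was lost under 10 of 28 alternatives. These included the mean of its probe sets (-0.03) and the removal of any AKR/J sleep-deprived array or of C57BL/6J sleep-deprived array 2 (-0.34) or 3 (-0.42). On the second, AKR/J arrays read 6.82, 6.74 and 6.84 in controls against 6.87, 6.42 and 6.90 in C57BL/6J, a difference of 0.07. After sleep deprivation DBA/2J minus AKR/J was 0.59 on the first and -0.52 on the second (limma adjusted p = 0.0024 and 0.038). The 2 probe sets thus passed the test in opposite directions.

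**Figure D3:**
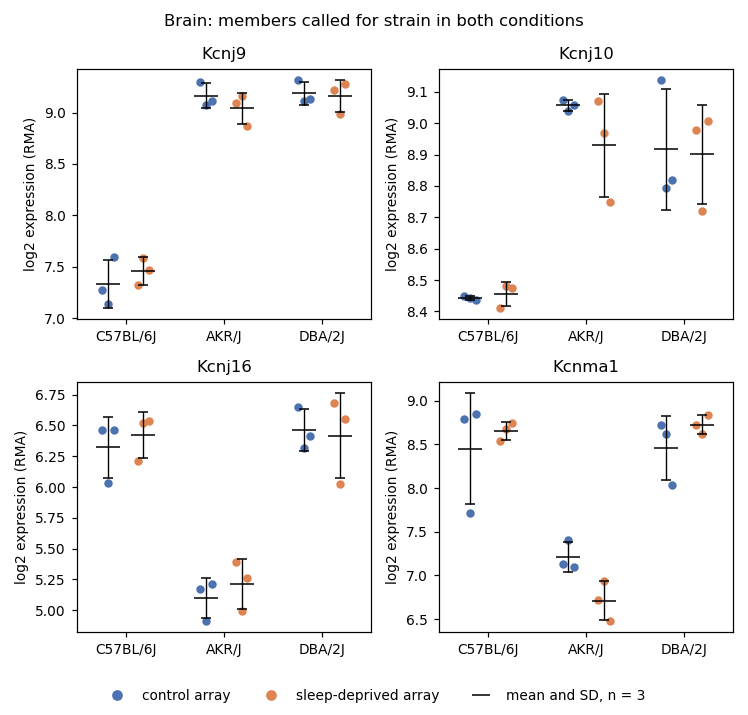
RMA log2 expression in brain of 4 members called for strain in both conditions, each array a point, black bars the mean and SD of 3 arrays. C57BL/6J is lowest for Kcnj9 and Kcnj10 and AKR/J is lowest for Kcnj16 and Kcnma1, in control and sleep-deprived groups alike.

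**Figure D4:**
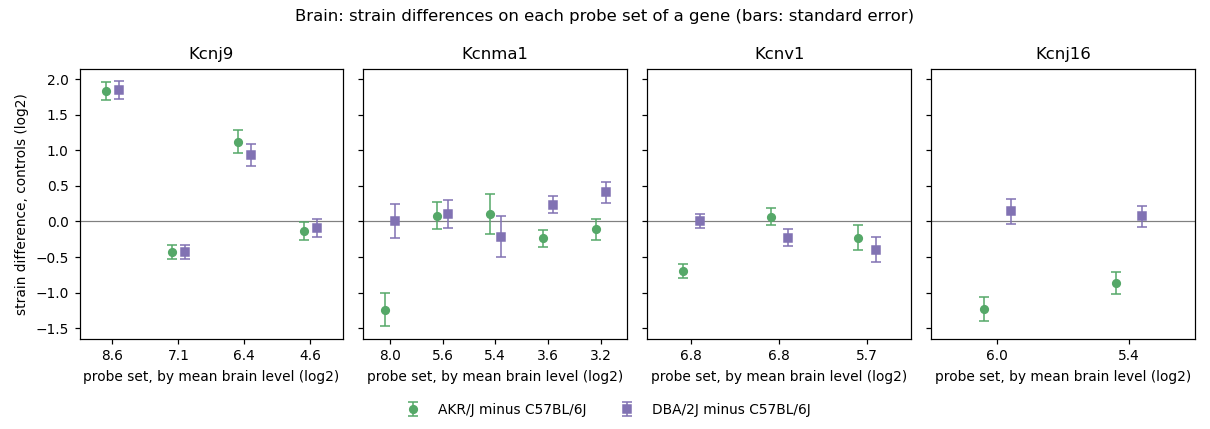
Strain differences among brain controls (log2, with limma standard errors) on each probe set of Kcnj9, Kcnma1, Kcnv1 and Kcnj16, placed by the probe set's mean brain level. The 2 probe sets of Kcnj16 lie together, while those of Kcnj9 lie on both sides of 0 and only the brightest of Kcnma1 departs from 0 by more than 1 unit.

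Kcng1 was called for strain among controls alone: AKR/J minus C57BL/6J was -0.42 ± 0.09 there (limma adjusted p = 0.024) and -0.01 ± 0.09 after sleep deprivation. The control call was lost under 8 of 28 alternatives, among them the doubtful controls left out (-0.43, limma adjusted p = 0.44). The same AKR/J controls enter its sleep deprivation effect above, so the values are not independent.

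On the probe set brightest in brain, most members are dim in liver. There 30 of 84 lay at or above the median of all liver values (4.098), against 60 of 84 in brain (median 4.774). Choosing probe sets by brain level favours brain here, and the share of all genes was not computed. Some members had another probe set that was brighter in liver, such as Kcnc1 (5.368 to 5.788 against 2.762 to 3.164). Sleep deprivation changed 2 of the 84 members in liver, both tandem-pore subunits. Kcnk5 rose by 1.48-fold and Kcnk7 fell by 1.23-fold as means over the strains, which is 2.38% of the members against 4.84% of all genes in either direction (3.01% higher and 1.83% lower). No member was called within a strain in liver. The share of all genes called there was 0.808% for C57BL/6J, 0.984% for AKR/J and 0.868% for DBA/2J. The interaction was called for 0 members and 0.033% of all genes by limma, with 6 of 84 members and 7.35% of all genes at an unadjusted p under 0.05.

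Kcnk5 encodes an alkali-activated leak channel known from epithelia. Liver controls read 6.59, 6.91 and 7.24 in C57BL/6J, 6.83, 7.00 and 6.98 for AKR/J and 6.79, 6.81 and 6.37 for DBA/2J. Sleep-deprived arrays read 7.08, 7.75 and 7.83 in C57BL/6J, 7.31, 7.49 and 7.50 in AKR/J mice and 7.68, 6.77 and 7.17 in DBA/2J mice. The groups were separate in AKR/J and overlapped in C57BL/6J and DBA/2J. The mean difference was 0.56 ± 0.12 (limma adjusted p = 0.012), and each strain's lay between 0.50 and 0.64. The second probe set was called too, at 0.55 ± 0.13 (limma adjusted p = 0.021). Without the AKR/J arrays the first gave 0.60 (limma adjusted p = 0.1), and without the doubtful controls alone it stayed called (limma adjusted p = 0.048). Its neighbour on the chromosome, Kcnk16, gave 0.02 ± 0.05.

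Kcnk7, a tandem-pore subunit for which no current of its own is established, went from 5.29, 5.22 and 5.27 to 5.06, 5.19 and 4.98 in C57BL/6J. In AKR/J the values were 4.99, 5.32 and 5.21 against 5.10, 4.63 and 4.86, and in DBA/2J 5.25, 5.07 and 5.23 against 4.71, 5.02 and 4.63. The ranges overlapped in AKR/J alone. The mean difference was -0.30 ± 0.07 (limma adjusted p = 0.023). It was no longer called without the doubtful AKR/J controls (-0.23, limma adjusted p = 0.16), without AKR/J (-0.29, limma adjusted p = 0.074), without C57BL/6J sleep-deprived array 3 (-0.28) or without DBA/2J sleep-deprived array 1 (-0.28).

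Of the marker lists read in liver, 1 of 5 endothelial genes was higher (Pecam1, 0.42, limma adjusted p = 0.013), 1 of 7 neuronal genes was lower (Syt1, -0.58, limma adjusted p = 0.00017) and none of 6 hepatocyte genes was called. The mean log2 value of the endothelial list lay between 4.85 and 5.33 on control arrays and between 5.28 and 5.44 on sleep-deprived arrays, and that of the neuronal list between 3.62 and 3.79 and between 3.52 and 3.73. Their part in the changes of Kcnk5 and Kcnk7 was not tested.

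The effect of sleep deprivation differed between the tissues for 2 members, against 2.04% of all genes, in a fit over all 36 arrays. For Kcng1 liver minus brain was -0.39 (limma adjusted p = 0.0041), with -0.13 in liver, where the gene is below the median of all values, and 0.26 in brain. That call was lost on the mean of its probe sets (-0.27) and without AKR/J (-0.29). For Kcnk5 liver minus brain was 0.60 (limma adjusted p = 0.040), with 0.56 in liver and -0.03 in brain, where it too is below the median. The Kcnk5 call was lost under 26 of 45 alternatives. Kcnk1 gave -0.10 ± 0.21 and Kcnj4 -0.08 ± 0.05 in liver, neither called.

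**Figure D5:**
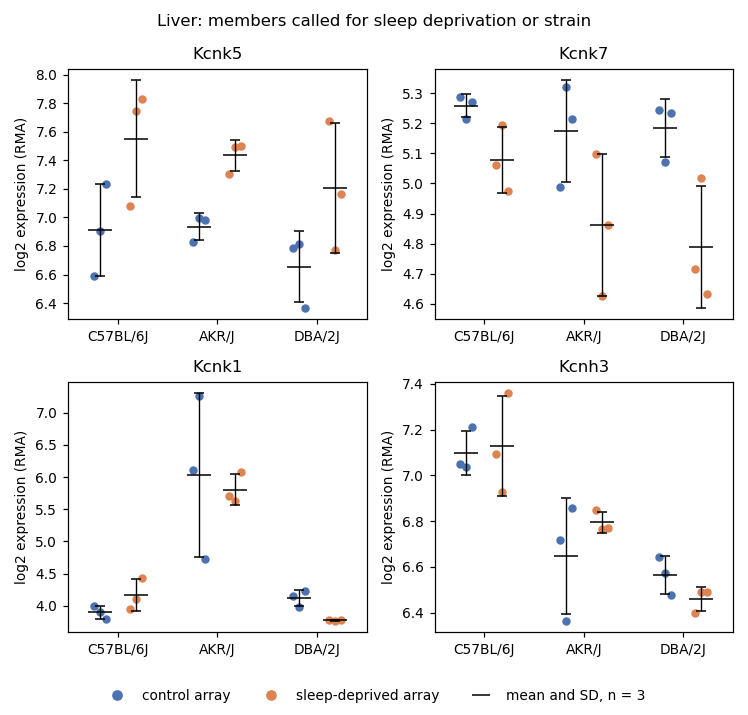
RMA log2 expression in liver of Kcnk5, Kcnk7, Kcnk1 and Kcnh3 by strain, each array a point, black bars the mean and SD of 3 arrays. Kcnk5 is higher on average after sleep deprivation in each strain, and Kcnk1 is high in AKR/J in both conditions with a wide spread among the AKR/J controls.

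Between strains the F test called 4 members among liver controls (Kcnh3, Kcnj8, Kcnk1 and Kcnk13; 11.7% of all genes) and 5 among sleep-deprived mice (Kcnh3, Kcnj10, Kcnk1, Kcnk16 and Kcnq1ot1; 13.7% of all genes). In both, 2 members were called (Kcnh3 and Kcnk1; 7.66% of all genes). The shares of members, 4.76%, 5.95% and 2.38%, lay below those of all genes.

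Kcnk1 was the member with the largest strain difference in liver. It read 6.12, 7.27 and 4.72 in AKR/J controls, against 4.0, 3.9 and 3.79 in C57BL/6J and 4.15, 3.98 and 4.23 in DBA/2J. After sleep deprivation the values were 5.71, 5.62 and 6.08 in AKR/J, 3.95, 4.11 and 4.44 in C57BL/6J mice and 3.78, 3.76 and 3.77 in DBA/2J mice. Every AKR/J array lay above every array of the other strains, and the AKR/J controls spread over more than 2 units. AKR/J minus C57BL/6J was 2.14 ± 0.36 among controls and 1.64 ± 0.36 after sleep deprivation (limma adjusted p = 0.00099 and 0.0082). The C57BL/6J and DBA/2J values lie near the median of all liver values, so no fold is given. The control difference was 1.52 without AKR/J control array 2 and 2.79 without array 3, and it stayed called both times. Without both arrays it was 2.22, on the 1 AKR/J control array left. The second probe set gave 1.21 and 0.83, of which the first was called (limma adjusted p = 0.023 and 0.13). In brain the same gene was not called for strain.

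Kcnh3, an ELK channel of forebrain neurons, was lower in DBA/2J than in C57BL/6J liver. DBA/2J minus C57BL/6J was -0.53 among controls and -0.67 after sleep deprivation (limma adjusted p = 0.0086 and 0.0012). DBA/2J controls read 6.64, 6.58 and 6.48 and C57BL/6J controls 7.05, 7.04 and 7.21, with no overlap. Its 4 probe sets gave -0.53, -0.35, 0.06 and -0.12 for that control difference. The second of them is of a type whose probes can bind more than 1 transcript. The DBA/2J control call was lost on the mean of the probe sets (-0.24, limma adjusted p = 0.051) and without C57BL/6J control array 3 (-0.48, limma adjusted p = 0.053). AKR/J minus C57BL/6J was -0.45 among controls (limma adjusted p = 0.029), a call lost under 7 of 28 alternatives, among them the doubtful controls left out (-0.38, limma adjusted p = 0.3), AKR/J control array 2 left out (-0.31) and C57BL/6J control array 1 (-0.48), 2 (-0.48) or 3 (-0.40) left out.

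The other strain calls in liver were in 1 condition each. Among controls Kcnj8, the vascular ATP-sensitive rectifier, was higher in AKR/J than in C57BL/6J by 0.57 (limma adjusted p = 0.0059), and Kcnk13, a tandem-pore channel of microglia, was lower, at -0.40 (limma adjusted p = 0.011). Without the doubtful controls, on the 1 AKR/J control array left, Kcnj8 gave 0.73 and Kcnk13 lost its call (-0.27). Kcnk13 also lost it without AKR/J control array 2 (-0.38) or 3 (-0.36) or C57BL/6J control array 2 (-0.37). On the mean of its probe sets the difference was smaller, at -0.24, and stayed called (limma adjusted p = 0.044). Among sleep-deprived mice DBA/2J minus C57BL/6J was -0.58 for Kcnk16, a channel known from pancreatic islets, -0.45 for the imprinted non-coding RNA Kcnq1ot1 and 0.36 for Kcnj10 (limma adjusted p = 0.00053, 0.022 and 0.043). That of Kcnj10 was lost under 11 of 28 alternatives, 10 of them the removal of 1 array (any sleep-deprived array of C57BL/6J or DBA/2J, C57BL/6J control array 1 or 3, or AKR/J control or sleep-deprived array 2), with values from 0.29 to 0.41. That of Kcnq1ot1 was lost under 5 of 28: on the mean of its probe sets (-0.17), with only the arrays compared, and without C57BL/6J sleep-deprived array 1 (-0.34) or 2 (-0.45) or DBA/2J sleep-deprived array 3 (-0.37). Whether these differences themselves depended on the condition was tested by the interaction, which called none of them.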

How the data were processed

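The authors deposited log2 values; RMA is the method named by the submitters' processing notes, with no version given. RMA adjusts arrays toward a common distribution and can shrink changes of dim probe sets; the deposited arrays still differed, since brain medians ran from 4.733 to 4.857 and liver medians from 4.049 to 4.132. Arrays have no sequencing depth, and their number limits the precision. No further normalisation was applied. Genes were named from the platform's annotation, and all 84 members matched the RefSeq table of GRCm38.p6 by gene identifier; promoter windows are RefSeq's, on that build.

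After removing 64 controls from the 45101 probe sets, 45037 were tested. The fit in each tissue, made with limma 3.58.1 (R 4.3.3), had 18 arrays in 6 groups, and liver minus brain as 12 groups over 36 arrays. Two-sided p-values were adjusted over all 45037 probe sets by the Benjamini-Hochberg method, and an adjusted p under 0.05 is a call. Values after ± are standard errors from limma. Fits were tested on simulated data. The alternatives were a replicate block, median centring, a second quantile normalization, an intensity trend, array weights, bright probe sets only, the mean of a gene's probe sets, only the arrays compared, AKR/J left out, the doubtful AKR/J controls left out, and each array left out in turn. Leaving out 5 brain arrays and 1 liver array that stood apart in spread or actin difference was chosen after seeing the data.

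Genes named are those called for sleep deprivation or interaction, up to 12 per tissue called for strain alike in both conditions, the 5 uncalled members with the largest brain change, and a list of well-known channels; others (Kcnc1's and Kcnt1's several probe sets, Kcnj2, Kcnj8, Kcnk13, Kcnk16, Kcnq1ot1 and Kcnmb4os2) were named after their values were seen. The members and lists were chosen with earlier results of these data known. Control and sleep-deprived arrays of the same strain and replicate number were not treated as paired. Over 9 such pairs of arrays in each tissue, deviations from the group means correlated at -0.416 to 0.406 in brain and -0.122 to 0.216 in liver. Whether brain and liver arrays of the same number share mice was not tested. The fit for liver minus brain treated all arrays as independent.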

Additional observations from a re-analysis of the deposited data

Results flagged for a closer look

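The mean effect of sleep deprivation differed between liver and brain for 2 members, by limma's test of that difference over 36 arrays. For Kcng1, the silent subunit, liver minus brain was -0.39 (limma adjusted p = 0.0041). For Kcnk5, the alkali-activated leak channel, it was 0.598 (limma adjusted p = 0.040), a call that was lost when any 1 of 22 of the 36 arrays was left out. Over all alternatives the values ran from -0.419 to -0.271 for Kcng1 and from 0.514 to 0.699 for Kcnk5. Groups of 3 arrays were too small for the search for single arrays far from the others.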

How the results depend on the processing

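Counts below are of the 84 members called, and the reported counts are 4 for the brain mean effect, 1 within strains, 6 and 5 for brain strain differences among controls and sleep-deprived mice, 2 for the liver mean effect and 2 for liver minus brain. The share of all genes called was not computed under the alternatives. Their counts therefore show how calls of members depend on the settings, not how members compare with all genes. With array weights the reported counts became 10, 7, 15, 16, 2 and 5. Without the doubtful AKR/J controls the brain mean effect had 1, within strains 0, brain controls 3, the liver mean effect 1 and liver minus brain 1. With AKR/J left out the mean effects had 0 in brain and 0 in liver, and liver minus brain 0. Within strains in brain, median centring, the intensity trend, the mean of a gene's probe sets and only the arrays compared gave 0, and the second quantile normalization gave 2. The mean of a gene's probe sets gave 3 for brain controls and 1 for liver minus brain, and reversed 1 call: Kcnv1 in sleep-deprived mice, DBA/2J minus AKR/J, at -0.095. Only the arrays compared gave 3 among sleep-deprived brains, and bright probe sets only gave 0 for liver minus brain. Without the arrays that stood apart, chosen after seeing the data, the brain mean effect had 8, within strains 2, and liver minus brain 1. The replicate block gave 1 for liver minus brain, where Kcnk5 had a limma adjusted p of 0.059, ended the brain call of Kcnv1 (limma adjusted p = 0.079), and gave 4 and 2 for the brain and liver mean effects; it moved no other count by over 1.5 times. Leaving out 1 array gave 2 to 5 and 0 to 1 for the brain mean and within-strain effects, 5 to 7 and 4 to 6 for brain strain differences, 1 to 3 for the liver mean effect, 3 to 5 and 3 to 5 for liver strain differences, and 1 to 2 for liver minus brain; the interaction had 0 throughout in both tissues. The cause of these shifts was not tested, beyond fewer arrays where arrays were left out. Dim probe sets, such as those read for 54 of the 84 members in liver, limit what could be seen there.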
